A study of Homo sapiens with 12 samples.

Results

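The BCL6 and LPP locus is a 1.25 Mb stretch of human chromosome 3, from 187400000 to 188650000 on the hg19 build, that holds BCL6, LPP and the sequence between them. Its members are all PAX5 peaks of 6 deposited lists that overlap this stretch, 57 peaks in all, which merge into 27 regions of the 14465 regions found over the genome. The locus was chosen on these same lists, because the 100 kb from 187600000 to 187700000 held 4 regions present in every Burkitt lymphoma list and in no list of the Hodgkin line. Presence or absence by line is therefore described here and not tested, and the same holds for the strength of the peaks. The regions are called site 1 to site 27, numbered along increasing hg19 coordinates, from the BCL6 end to the LPP end. Positions are printed as deposited, and the lists do not state if their first base is numbered 0 or 1.

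PAX5 was mapped by chromatin immunoprecipitation and sequencing (ChIP-seq) in 3 human cell lines. Raji and Namalwa come from Burkitt lymphoma, a tumour of germinal-centre B cells, and were listed as untreated. L428-PAX5 is a PAX5-producing form of L428, a classical Hodgkin lymphoma line, in which mifepristone was the listed treatment and PAX5 overproduction was induced 48 h before fixation. Cells of all 3 lines were fixed with 1% formaldehyde for 20 min, and 10 µg of PAX5 antibody C-20 was used per precipitation. Each line had 2 immunoprecipitated libraries, numbered 1 and 2, with an input library for each. The labels do not say whether libraries 1 and 2 of a line came from separate cultures, so differences between them may be technical. Input libraries and uninduced L428 were not analysed here, and the lists give no background level and no read depth. They hold no expression values either, so the identity of the lines was not checked against marker genes.

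PAX5 is a paired-domain transcription factor needed to commit cells to the B lineage and to keep mature B cells as such. BCL6 encodes a zinc-finger repressor that directs the germinal-centre reaction and holds back plasma-cell differentiation, and its gene is a frequent site of translocation and somatic hypermutation in B-cell lymphoma. Regulatory elements far upstream of BCL6, in the direction of LPP, are known to support its transcription in germinal-centre B cells. LPP encodes a LIM-domain protein of cell adhesion sites and is a known translocation partner of BCL6. Hodgkin tumour cells descend from B cells and have shut off much of the B-cell programme.

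In RefSeq's gene order along the chromosome, 8 annotated genes are listed between BCL6 and LPP, among them BCL6-AS1, LINC01991 and LPP-AS2, and 5 others known only by a LOC number. The coordinates of that table belong to GRCh38.p14 and were not carried over to hg19, so which of the sites are exonic, intronic or intergenic was not determined. For the same reason the sequence under the peaks was not read. To show the regulatory start of each member gene, the 250 bases before the outermost start were taken from RefSeq's promoter table on GRCh38.p14. These are chr3:187745469-187745718 on the minus strand for BCL6 and chr3:188152771-188153020 on the plus strand for LPP, positions that cannot be set against the hg19 positions below.
BCL6: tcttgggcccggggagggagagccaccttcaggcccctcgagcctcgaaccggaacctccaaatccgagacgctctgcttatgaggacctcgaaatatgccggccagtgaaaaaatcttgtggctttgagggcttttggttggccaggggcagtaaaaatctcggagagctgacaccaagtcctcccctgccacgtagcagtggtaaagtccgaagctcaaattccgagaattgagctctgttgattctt
LPP: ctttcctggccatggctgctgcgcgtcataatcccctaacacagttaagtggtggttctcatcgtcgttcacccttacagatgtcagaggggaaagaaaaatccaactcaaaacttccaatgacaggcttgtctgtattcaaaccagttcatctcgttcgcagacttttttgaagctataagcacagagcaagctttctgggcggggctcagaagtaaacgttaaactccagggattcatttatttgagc
Both are printed in lower case with no letters in capitals, since neither holds the core letters searched. The core of the PAX5 motif was searched as GCGTGAC and as GCATGAC on both strands. Neither was present in the 2 BCL6 or the 7 LPP windows of 250 bases in that table. Over all 35116 such windows, 2.2% held the former and 1.43% the latter, so a window without them is the usual case.

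The Burkitt lists held most of the peaks of the locus. There were 8 peaks from Raji 1, 11 from Raji 2, 25 from Namalwa 1 and 6 from Namalwa 2. The Hodgkin libraries L428-PAX5 1 and L428-PAX5 2 gave 3 and 4. The lists differ in length, from 2107 peaks (Namalwa 2) to 6241 (Namalwa 1), so the counts were also taken as shares. The locus took 0.305% of the Raji 1 list (exact 95% interval 0.132 to 0.601%), 0.222% of Raji 2 (0.111 to 0.396%), 0.401% of Namalwa 1 (0.259 to 0.591%) and 0.285% of Namalwa 2 (0.105 to 0.619%). It took 0.0484% of L428-PAX5 1 (0.00998 to 0.141%) and 0.123% of L428-PAX5 2 (0.0335 to 0.315%). All 4 Burkitt shares lay above both L428-PAX5 shares. The choice of the locus favoured that order, so nothing is read from it. The intervals cover counting error over peaks only and take neighbouring peaks as independent, so they are not used to compare the lines.

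**Figure D1:**
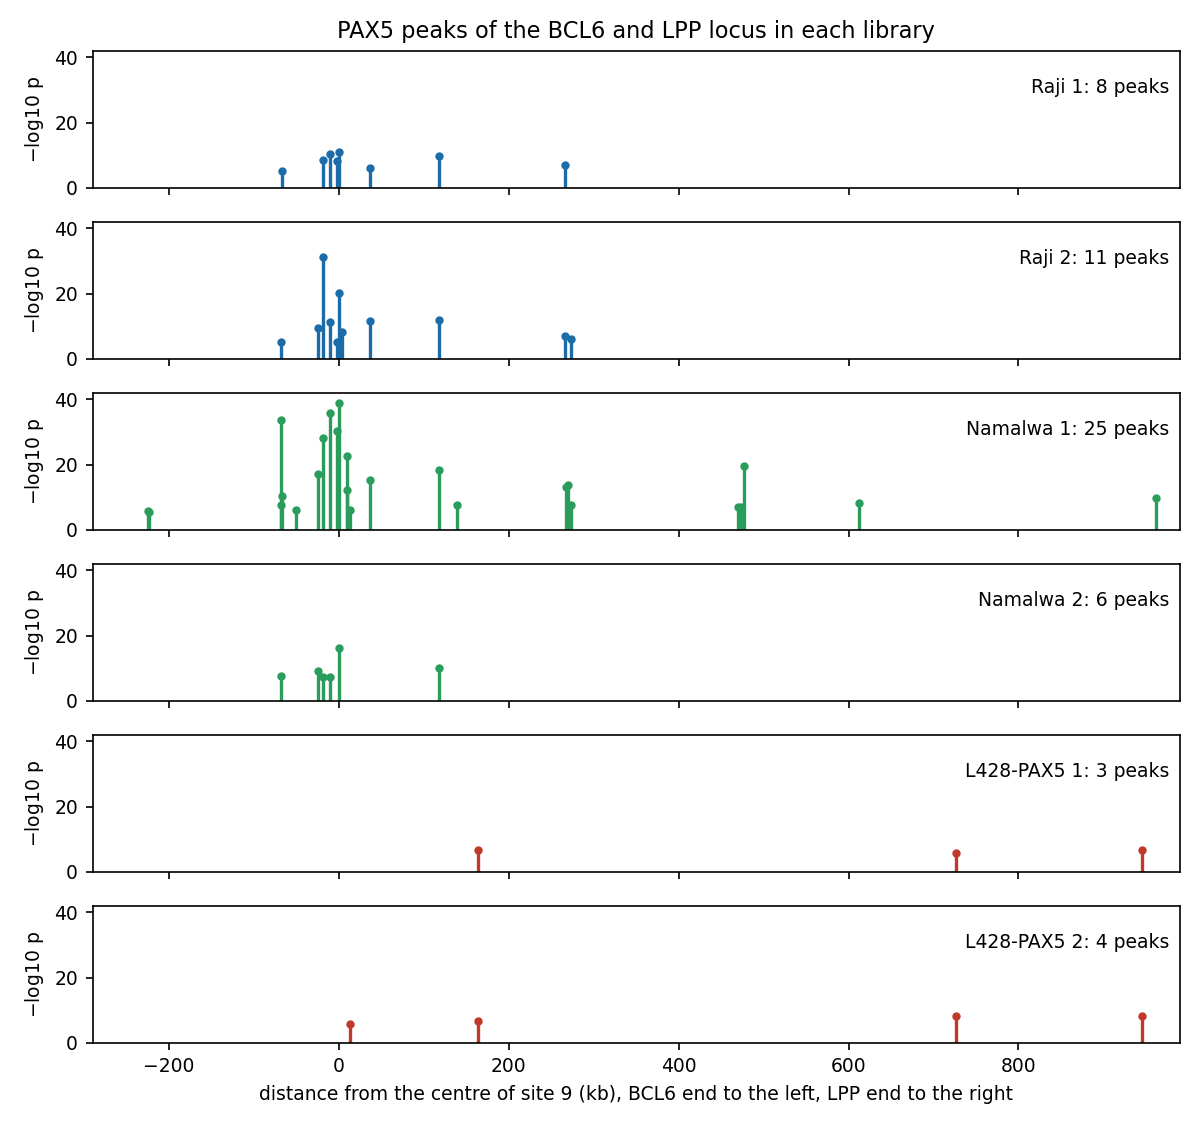
Each panel shows 1 library, with peak position as distance in kb from the centre of site 9 (horizontal) and −log10 of the deposited p-value (vertical). The Burkitt peaks crowd around 0 and reach 11.01 in Raji 1, 31.1 in Raji 2, 38.96 in Namalwa 1 and 16.1 in Namalwa 2. The 7 L428-PAX5 peaks stay at or below 8.33. Heights move with the depth and length of a list, so they are not compared between libraries. None of these 7 lies at sites 5 to 9, and the nearest is a peak of L428-PAX5 2 at site 13.

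Of the 27 sites, 24 had a peak in at least 1 Burkitt list, 4 were present in 1 or both L428-PAX5 lists, and 1 had both kinds of peak. The shares of all merged regions with any Burkitt peak, or with both kinds, are not given here. Nothing is therefore read from the counts of 24 and 1. Both Raji lists shared 8 sites, all 8 of Raji 1 and 72.7% of those of Raji 2, against 84.1% and 44.5% of the regions of these lists over the genome. Both Namalwa lists shared 6 sites, all 6 of Namalwa 2 and 26.1% of those of Namalwa 1, against 90.4% and 30.5%. L428-PAX5 1 and L428-PAX5 2 shared 3 sites, all 3 of the former and 75% of the latter, against 40.4% and 77.2%. Sharing between L428-PAX5 and a Burkitt list was low over the whole genome too. Of the L428-PAX5 1 regions, 5.69% (Namalwa 2) to 12.5% (Namalwa 1) were also in a given Burkitt list, and of the L428-PAX5 2 regions 6.95% (Namalwa 2) to 12.9% (Raji 2). With so few L428-PAX5 sites in the locus, 1 shared site says little about it. Taken from the Burkitt side, 12.5% (Namalwa 1) to 19.7% (Raji 1) of the regions of a list were in L428-PAX5 1. For L428-PAX5 2 the shares were 6.61% (Namalwa 1) to 11.5% (Raji 1). In the locus, 1 of the 23 sites of Namalwa 1 was in L428-PAX5 2, and no other pair of a Burkitt and an L428-PAX5 list shared a site. Over the genome, 47.6% of all merged regions were present in an L428-PAX5 list, against 4 of 27 (14.8%) in the locus. Sites present in all 4 Burkitt lists and absent from L428-PAX5 numbered 5 of 27 (18.5%), against 4.8% of all merged regions. Since the locus was picked for such sites, nothing is read from these gaps. Namalwa 1 set the number of sites, which was 16 without that library.

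Sites with peaks in 3 or 4 Burkitt lists stood closest together between 187662426 and 187687834, where 5 of them lay within 25.4 kb, with gaps of 2.02 to 7.78 kb. These are sites 5 to 9, and neither L428-PAX5 list had a peak in any of them. Over the genome, at most 19.7% of the regions of a single Burkitt list (Raji 1 in L428-PAX5 1) were in a given L428-PAX5 list. That share is not for regions in 3 or 4 Burkitt lists, nor for a peak in either L428-PAX5 list. The share for such regions is not given here, so the absence at sites 5 to 9 has no like rate beside it. The locus was also picked for such absence. Over the genome, the median distance from a region of all 4 Burkitt lists without L428-PAX5 to the nearest other such region was 655 kb (695 regions). Sites 6, 7 and 9, the 3 of that kind in this stretch, were 7.29 and 10.4 kb apart. The locus was picked because regions of that kind were crowded in part of it, so short distances followed from the choice. Nothing is read from the gap between these distances and the median. The closest L428-PAX5 peak, at site 13, lay 12.2 kb from site 9 and 37.0 kb from site 5.

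**Figure D2:**
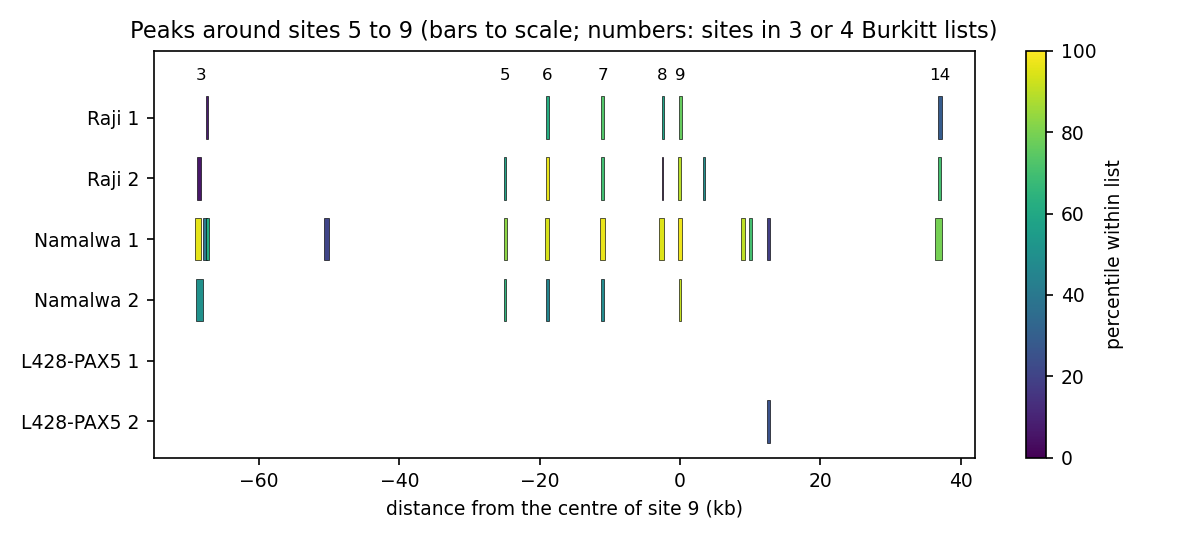
Bars show the extent of every peak, to scale, around sites 5 to 9, by library (rows) and distance in kb from the centre of site 9, with the colour giving the percentile of the peak within its list. Sites 6, 7 and 9 have a bar in all 4 Burkitt rows, the L428-PAX5 1 row is empty, and at site 3 the 2 Raji bars do not overlap.

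Strength is given as −log10 p and as a percentile, the share of peaks in the same list that are weaker, with ties counted in the middle, so that 100 is the strongest and a list's own median is 50. Both move with the depth and length of a list, so values of different libraries are set beside each other as places in their own lists and not as amounts of binding. With every list reduced to 2107 peaks and ranks taken anew in it, the median percentile of the peaks in the locus was 50.3. That is over fewer peaks and on another scale than the 59.0 of the full lists. Site 9 (chromosome 3, 187687273 to 187687834) was the strongest of the locus by mean percentile among sites of all 4 Burkitt lists. Its −log10 p was 11.01 in Raji 1, 20.1 in Raji 2, 38.96 in Namalwa 1 and 16.1 in Namalwa 2. It ranked 620 of 2619, 509 of 4960, 165 of 6241 and 186 of 2107, and so stood in the upper part of every list. Its mean percentile was 88.7 ± 8.9 (SD over the 4 Burkitt libraries, which are not 4 separate lines). No other site of the locus was above the 75th percentile in all 4 lists.

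Site 6 (187668394 to 187668936) had a −log10 p of 8.68 in Raji 1, 31.1 in Raji 2, 28.3 in Namalwa 1 and 7.18 in Namalwa 2. Its percentiles, in that order, were 62.0, 96.6, 93.8 and 45.3, so each line had a strong and a weaker library here and the lines were not separated. Rank 170 in Raji 2 was the best of any Raji peak in the locus. Site 7 (187676229 to 187676854) had a −log10 p of 10.2, 11.4, 35.9 and 7.35 in the same order of libraries. It was high in Namalwa 1, at percentile 96.6, between 69.6 and 72.7 in the Raji lists, and at 47.3 in Namalwa 2.

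Sites 5 and 8 were each missing from 1 Burkitt list. Site 5 (187662426 to 187662971) had no peak in Raji 1 and a −log10 p of 9.42 in Raji 2, 17.2 in Namalwa 1 and 9.13 in Namalwa 2. Site 8 (187684629 to 187685250) had none in Namalwa 2, and 8.28 in Raji 1, 5.13 in Raji 2 and 30.2 in Namalwa 1. In Raji 2 it was ranked 4770 of 4960, close to the end of the list, while in Namalwa 1 it was ranked 330 of 6241. The lists end just above a −log10 p of 5, so a site without a peak can lie below that limit and is not shown to be unbound.

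**Figure D3:**
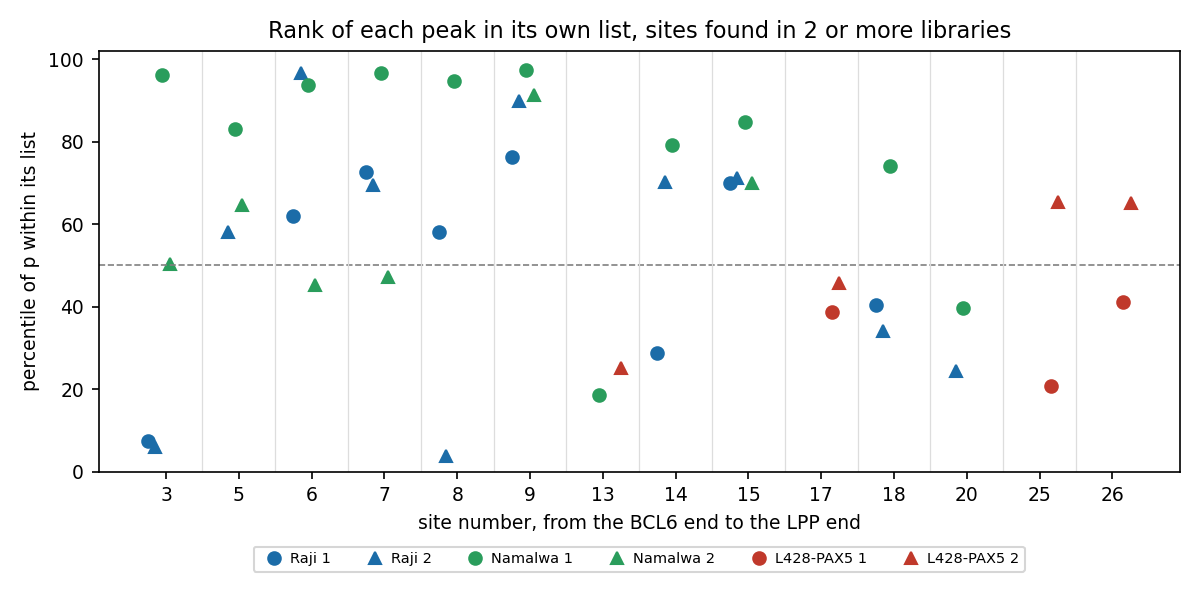
The vertical axis is the percentile of the peak's p-value within its own list and the horizontal axis the 14 sites found in 2 or more libraries. Colours mark the lines, circles library 1 and triangles library 2, and the dashed line is the list median of 50. Site 9 has all 4 Burkitt points above 76, and the L428-PAX5 points lie between 20.7 and 65.3.

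The peaks of different libraries lay close together at most of these sites. The centres of the peaks differed by 40 bp at site 6, 50.5 bp at site 7, 95.5 bp at site 9 and 114 bp at site 15, against a median of 95 bp over all 695 regions of that kind. Site 3 (187618440 to 187620440) was the exception, with a range of 1273 bp. It was made of 6 peaks in a chain, 3 of them from Namalwa 1, and the peaks of Raji 1 (187619986 to 187620334) and Raji 2 (187618724 to 187619220) were 766 bp apart. With a reciprocal overlap of 50%, or with centres within 200 bp, it fell into 3 regions, none of them in all 4 Burkitt lists. The stretch from 187600000 to 187700000 then held 3 such regions in place of 4. The −log10 p at site 3 was 33.6 in the strongest Namalwa 1 peak and 7.61 in Namalwa 2, against 5.26 and 5.22 in Raji 1 and 2. The Raji peaks stood at percentiles 7.43 and 5.95, among the weakest of their lists.

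Towards LPP, site 15 (187805285 to 187806107) was the fifth site in all 4 Burkitt lists, with a −log10 p of 9.71 in Raji 1, 11.8 in Raji 2, 18.4 in Namalwa 1 and 9.97 in Namalwa 2. Its percentiles were 70.1, 71.2, 84.8 and 69.9, the most even of these 5 sites (mean 74.0 ± 7.2, SD over the 4 Burkitt libraries). Sites 9 and 15 were the 2 of the 5 that kept a peak in all 4 Burkitt lists when each list was reduced to its better 50%. The other 3 each had at least 1 peak below its list median. How many of all regions of this kind keep their 4 peaks under that cut is not given here. The cut therefore does not set sites 9 and 15 apart from their class.

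The further sites of more than 1 Burkitt list had no peak in Namalwa 2. Site 14 (187723960 to 187724874) had a −log10 p of 6.21 in Raji 1, 11.5 in Raji 2 and 15.2 in Namalwa 1. Site 18 (187954127 to 187954590) had 6.91, 6.86 and 13.2 in the same libraries, and Raji 1 and 2 were nearly equal there, at percentiles 40.4 and 34.1. Site 20 (187960080 to 187960663) was found in Raji 2 and Namalwa 1 alone, with 6.21 and 7.52. Past site 20, over the 0.69 Mb to the end of the locus, no site had peaks in more than 1 Burkitt list.

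Some sites had peaks in the L428-PAX5 lists only. Sites 17, 25 and 26 had a peak in both L428-PAX5 lists and in no Burkitt list, which held for 3 of 27 sites (11.1%), against 14.1% of all merged regions. Site 17 (187851023 to 187851882) had a −log10 p of 6.64 in L428-PAX5 1 and 6.76 in L428-PAX5 2. Site 25 (188413694 to 188414070) had 5.76 and 8.33, and site 26 (188632260 to 188633237) had 6.73 and 8.32. In L428-PAX5 1 these 3 peaks stood below the list median, at percentiles 38.7, 20.7 and 41.0. In L428-PAX5 2 sites 25 and 26 were above it, at 65.3 and 65.1, and site 17 was at 45.6. Among the 2043 regions of this kind, ordered by mean percentile, sites 17, 25 and 26 came in places 1571, 1546 and 1271.

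Site 13 (187699942 to 187700449) was the site shared between a Burkitt line and L428-PAX5. It had a −log10 p of 5.96 in Namalwa 1, with rank 5075 of 6241, and of 5.85 in L428-PAX5 2, with rank 2427 of 3252. The centres of these peaks differed by 17 bp, and both were weak in their lists. Neither Namalwa 2 nor L428-PAX5 1 had a peak there, so the sharing was seen in 1 library of each line.

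A further 13 of the 27 sites (48.1%) were found in 1 library, against 55.1% of all merged regions, and 12 of these 13 came from Namalwa 1. Over the genome, Namalwa 1 gave 2508 of the 7967 regions of 1 library. Of the 23 sites of Namalwa 1 in the locus, 52.2% had no peak in any other library, while over its whole list the share was 40.7%. The median percentile of these 12 sites was 44.0, and that of the 11 sites Namalwa 1 shared with another library was 84.8. The same medians over the whole Namalwa 1 list are not given here, so the gap is not read as a trait of the locus. The −log10 p of the 12 sites ran from 5.57 to 22.5. Site 11 (187696252 to 187696840), 8.42 kb past site 9, had a −log10 p of 22.5 and percentile 89.8, and site 23 (188163799 to 188164915) had 19.6 and 86.7. Site 23 stood with the weaker sites 21 and 22 (−log10 p of 6.86 and 6.93) in a group that no other library showed. Site 19 (187956825 to 187957315), 2.24 kb past site 18, had 13.8, and site 12 (187697342 to 187697772) had 12.1. Sites 1 (187462799 to 187462986) and 2 (187463263 to 187463737), the lowest of the locus by coordinate, were weak, with a −log10 p of 5.72 and 5.57. Site 10 (187690881 to 187691092), of Raji 2, was the remaining site of 1 library, with 8.33.

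The locus was then set beside other stretches of the same length. The genome was tiled into 1.25 Mb windows, of which 2086 held at least 1 region, with the tiles of chromosome 3 placed so that the locus was 1 of them. The median window held 5 regions and none of the kind present in all 4 Burkitt lists and absent from L428-PAX5. The locus held 27 and 5, and 13 windows, itself among them, had 27 or more regions and 6 had 5 or more of that kind. In Namalwa 1 its 25 peaks were the most of any window, while 17 windows in Raji 1, 32 in Raji 2 and 40 in Namalwa 2, the locus included, held as many peaks or more. L428-PAX5 1 had 3 peaks in the locus against a median over windows of 2, and 913 windows (43.8%) held as many or more. L428-PAX5 2 had 4 against a median of 1, and 250 windows (12%) held as many or more. Of 8655 occupied bins of 100 kb, 2 held 4 regions of the Burkitt kind, and the bin at 187600000 was 1 of these. The locus was bounded around its sites while the other windows were not, so these places describe it and test nothing.

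**Figure D4:**
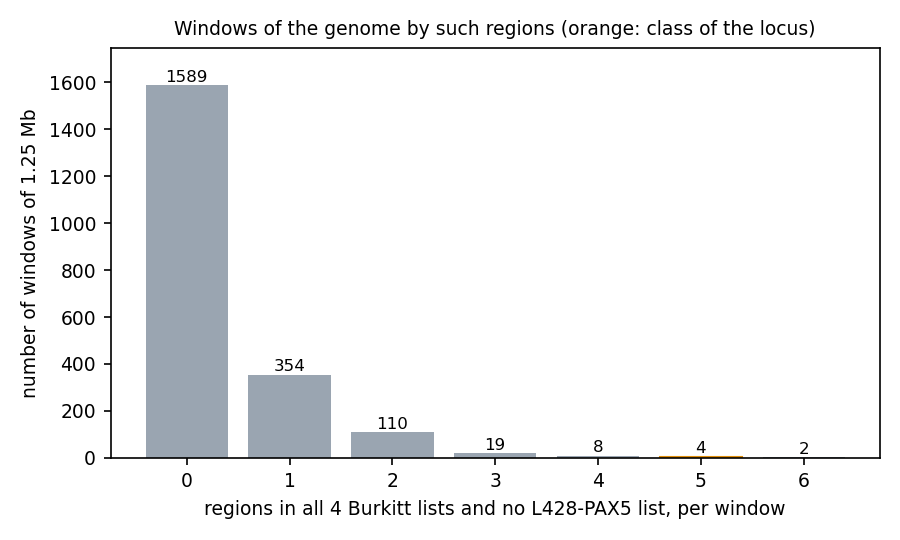
Bars give the number of 1.25 Mb windows (vertical) by how many regions of all 4 Burkitt lists without an L428-PAX5 peak they hold (horizontal). The 4 windows with 5 such regions, the locus among them, are drawn in orange, and 1589 windows hold none.

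In strength the sites were spread through their class. Among the 695 regions of all 4 Burkitt lists without L428-PAX5, ordered by mean percentile, site 9 came in place 121, sites 6, 15 and 7 in places 306, 309 and 347, and site 3 in place 651. The median over those regions was 71.3, so sites 6, 7 and 15, at 74.4, 71.5 and 74.0, lay close to it. Per library, the median percentile of the peaks in the locus was 59.98 in Raji 1, 58.1 in Raji 2, 70.2 in Namalwa 1 and 57.5 in Namalwa 2. It was 38.7 in L428-PAX5 1 and 55.4 in L428-PAX5 2.

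The bounds of the locus left out a like site by a short distance. A region at 187397350 to 187398038, 1.96 kb below the lower bound, had a peak in all 4 Burkitt lists and none in L428-PAX5, with a −log10 p of 9.13 in Raji 1, 12.05 in Raji 2, 13.3 in Namalwa 1 and 9.23 in Namalwa 2. The nearest peak inside that bound was site 1, 62.8 kb away from it. At the upper end, site 27 (188649343 to 188649736, −log10 p 9.8 in Namalwa 1) ended 0.264 kb inside the bound, and the next peak outside was 275 kb beyond it.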

How the data were processed

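The authors deposited 1 list of peaks per immunoprecipitated library, not pooled, with chromosome, start, end, a name and a p-value (the unit follows from the values, which all lie below 1e-05). CASAVA 1.3 and 1.8, BWA 0.5.9-r16 and hg19 are named in the submitters' processing notes, and the deposited peak names carry PeakRanger. Its settings, any use of input, whether the p-value is adjusted and the origin of the start coordinate were not stated in the sources used here. A list grows with depth and precipitation yield, and depth is unknown.

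Peaks that overlapped by at least 1 bp or touched were merged across lists, in chains, and ranks and percentiles were taken within each list. Shares carry exact (Clopper-Pearson) 95% intervals. All sites of 2 or more libraries are given with their values, and sites of 1 library by count, range and examples. Sites, bounds and measures were chosen with earlier results of these data known, and class places, shares by library, the chain of site 3 and the region outside the bound were examined after values were seen. Alternatives covered the merging rule, list length, left-out libraries, the bounds and replicate numbers. No test was run. Annotation and motif search at the peaks, and the planned list of germinal-centre genes, were left out because no hg19 sequence or annotation was used here. The counting was tested on simulated lists of well-separated peaks of equal width. These held no chains of peaks like that of site 3, so the merging of such chains was not tested. Tables were made in Python 3.11.15 with pandas 2.3.3 and numpy 2.4.6, intervals with scipy 1.17.1, and figures with matplotlib 3.10.9.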

Additional observations from a re-analysis of the deposited data

How the results depend on the processing

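Of 54 values recomputed, 46 stayed within 1.5 times the count, or within the SD of the library medians for the percentile. With the better 50% of each list there were 17 sites, 2 of them in all 4 Burkitt lists and 2 with an L428-PAX5 peak, and the median percentile of the peaks was 46.7 in place of 59.0. Fewer peaks enter there by construction, and their ranks were taken anew, so these percentiles are on unlike scales. Lists of equal length (2107 peaks) gave 16 sites. Libraries numbered 1 alone gave 8 sites of both Burkitt lists without L428-PAX5, and those numbered 2 alone gave 15 sites in all. Leaving out each library gave 16 to 28 sites (lowest without Namalwa 1), 4 to 7 in all remaining Burkitt lists without L428-PAX5, 3 to 4 with an L428-PAX5 peak, and a median percentile of 54.2 to 61.9. No paired analysis was made, since no result comes from a fit or test that could take a block. The labels do not say that libraries of the same number were made together, so the counts within each replicate number do not replace a pairing.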
